A study of Homo sapiens with 4 samples.

Results

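The Ikaros family comprises zinc finger transcription factors of lymphoid cells, and 7 probe sets for 4 of its genes are described here one by one. They are all probe sets whose platform annotation names IKZF1, IKZF2, IKZF3 or IKZF5, chosen by name and not by signal, out of 22277 on the array. They stand for 4 of the 11963 genes that the array names by a probe set with 1 symbol. IKZF1 has 4 probe sets, and IKZF2, IKZF3 and IKZF5 have 1 each. RNA from 2 human leukemia cell lines was hybridised to oligonucleotide arrays, which report a signal intensity for each probe set, a group of short probes that match one target sequence. Both lines carry the Philadelphia chromosome and so express BCR-ABL1, a constitutively active tyrosine kinase, and STI571 (imatinib) is an inhibitor of that kinase. The 4 groups were SUP-B15 after 16 h with 10 μmol/l STI571, SUP-B15 without STI571, BV-173 after 16 h with 10 μmol/l STI571, and BV-173 without STI571. Each group was 1 array of 1 culture of an established line, and with no replicates the precision of every value is limited by the number of arrays.

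IKZF1 encodes Ikaros, which is required for lymphoid development and restrains the expansion of B cell precursors. IKZF2 encodes Helios, known mainly from T cells and progenitors, and IKZF3 encodes Aiolos, which is more abundant in later B cell stages. IKZF5 encodes Pegasus, a more distant and broadly expressed relative. These proteins bind DNA through zinc fingers near the amino terminus and pair with each other through zinc fingers at the carboxy terminus. IKZF1 is transcribed into many splice forms, and forms or deletions that lose the DNA-binding fingers are a known feature of BCR-ABL1-positive lymphoblastic leukemia. Different probe sets of IKZF1 can therefore report different sets of transcripts. Where each probe lies along the transcript is not stated in any source at hand.

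The arrays had the same scale, with a trimmed mean of 500.2 on each and medians of 95.5 to 115. Treated BV-173 stood apart in its control signal for 18S ribosomal RNA, at 2817, while the other arrays had 1513 to 1597. Its part in the BV-173 responses was not tested. Of 5 B lineage markers measured, 4 and 5 reached the 75th percentile in SUP-B15 with and without STI571, and 3 did so in each BV-173 array. PAX5 lay above the 93rd percentile of every array. Of 6 T cell, 7 myeloid and 3 erythroid markers measured, 0 reached the 75th percentile of any array. The summed T cell signal was 174 and 164 in SUP-B15 with and without STI571, and 310.2 and 207 in BV-173 with and without it. CD10 (MME) had 4178 and 2102 in SUP-B15 with and without STI571, and 81.4 and 31.3 in BV-173. CD72 had 1024 and 814 in SUP-B15, and 11.2 and 48.3 in BV-173. CD10 and CD72 were below the array median in BV-173. CD22 went the other way, with 379 and 712 in SUP-B15 with and without STI571, and 1034 and 983 in BV-173.

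The genomic context of IKZF1 is shown because the Ikaros proteins themselves bind sites with the core GGGAA and the gene has several start sites in the reference table. The windows are from RefSeq (GRCh38.p14), 300 bases each on the plus strand of chromosome 7, from 250 bases before to 50 after a start, with GGGAA or its reverse complement TTCCC in capitals.
IKZF1 start, chr7:50304466-50304765: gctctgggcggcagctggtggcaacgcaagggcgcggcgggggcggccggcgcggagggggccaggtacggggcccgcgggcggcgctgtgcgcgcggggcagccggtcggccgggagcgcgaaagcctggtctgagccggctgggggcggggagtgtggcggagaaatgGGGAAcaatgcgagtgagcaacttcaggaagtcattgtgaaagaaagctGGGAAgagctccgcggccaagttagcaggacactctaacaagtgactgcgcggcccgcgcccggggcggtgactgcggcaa
IKZF1 start, chr7:50308450-50308749: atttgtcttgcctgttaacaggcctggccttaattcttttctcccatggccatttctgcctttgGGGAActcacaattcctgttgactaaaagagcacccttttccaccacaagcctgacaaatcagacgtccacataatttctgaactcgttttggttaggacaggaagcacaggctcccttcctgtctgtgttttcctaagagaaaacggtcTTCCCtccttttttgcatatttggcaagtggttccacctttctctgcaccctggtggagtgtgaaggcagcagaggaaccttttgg
Each of these windows holds 2 matches, both strands searched and overlapping matches each counted. A match is a run of letters and not a measured site: of 35116 such windows of all genes, 65% hold at least 1 match and 29.8% at least 2. Another IKZF1 window and both IKZF2 windows of the table hold 0, and the 2 IKZF5 windows overlap and hold the same 1 match. The arrays do not tell which start gave the measured transcripts.

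The brightest IKZF1 probe set, 205039_s_at, had signals of 2635 in treated and 2083 in untreated SUP-B15, and of 1406 in treated and 503 in untreated BV-173. Both SUP-B15 signals lay above both BV-173 signals, and in each line the treated signal was the higher one. Changes are given below as differences of log2(signal + 24.5), a scale that shrinks the change of a dim probe set. On that scale 205039_s_at was higher with STI571 by 0.34 (1.26-fold) in SUP-B15 and by 1.44 (2.71-fold) in BV-173. The suffix _s_at is the maker's mark for probes shared by several transcripts, and 205039_s_at carries it.

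The second brightest, 205038_at, had 851 in treated and 865 in untreated SUP-B15, and 470.2 in treated and 211 in untreated BV-173. The SUP-B15 signals were nearly equal and both lay above the BV-173 pair, whose treated array was the higher. The changes were −0.02 in SUP-B15, which turned to 0.08 with arrays set to a common median, and 1.07 (2.10-fold) in BV-173. A common median moved the change of the middle probe set of all by 0.10 in SUP-B15 and −0.16 in BV-173. The platform annotation ties 205038_at and 205039_s_at to the same sequence record. Whether the 2 probe sets share probes was not tested.

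The third, 216901_s_at, had 359 in treated and 339 in untreated SUP-B15, and 197 in treated and 32.1 in untreated BV-173. Untreated BV-173 stood apart from the other 3 arrays and was the only one below its array's median signal. The change was 0.08 (1.05-fold) in SUP-B15 and 1.97 (3.91-fold) in BV-173. The low untreated signal lies near the added 24.5, and the BV-173 change was 2.58 with a pseudocount of 1 and 1.18 with one of 98.

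The fourth, 220704_at, went the other way in BV-173. It had 249 in treated and 163 in untreated SUP-B15, and 28.9 in treated and 76.1 in untreated BV-173. Both BV-173 signals were below their array's median. Treated BV-173 was here the lowest of the 4 arrays, where in the other 3 IKZF1 probe sets untreated BV-173 was. The change was 0.54 (1.46-fold) in SUP-B15 and −0.91 in BV-173, a 1.88-fold lower value with STI571. The treated BV-173 signal also lies near the added 24.5, and the BV-173 change was −1.37 with a pseudocount of 1 and −0.46 with one of 98.

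**Figure D1:**
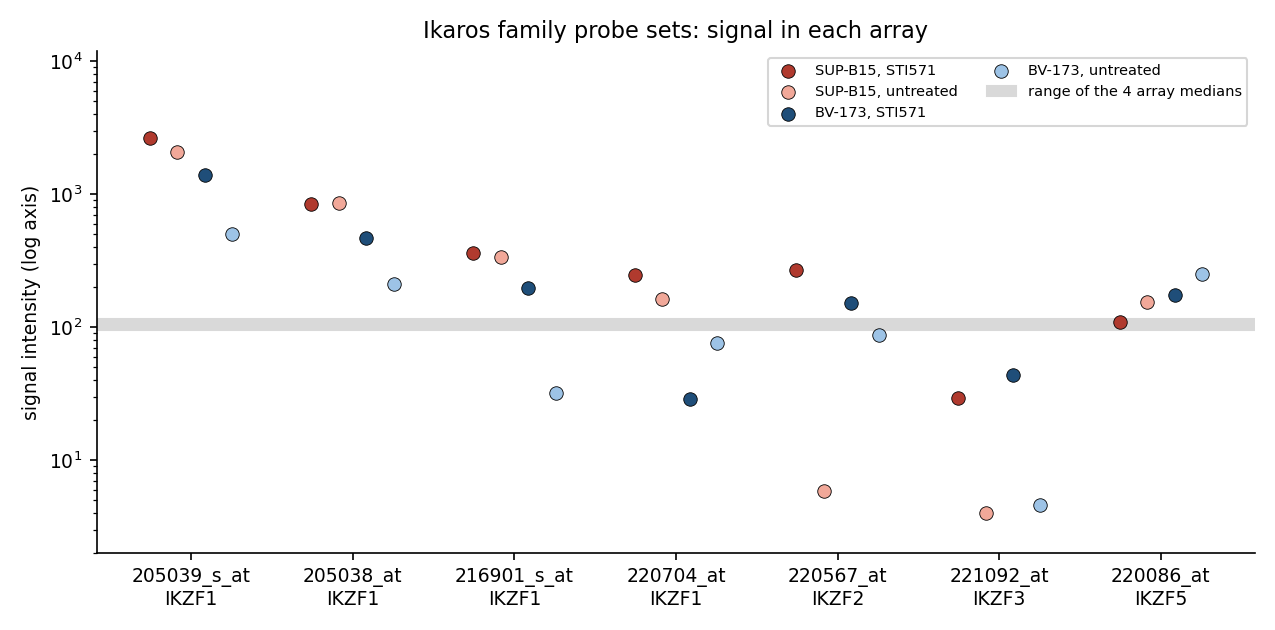
Signal intensity (log axis) of each Ikaros family probe set in the 4 arrays, 1 point per array, with the range of the 4 array medians (95.5 to 115) in grey. In 205039_s_at, 205038_at and 216901_s_at of IKZF1 the SUP-B15 points lie together above BV-173 and untreated BV-173 is lowest, whereas in 220704_at treated BV-173 is lowest at 28.9.

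The spread of the IKZF1 responses was large in BV-173 and ordinary in SUP-B15. Over its 4 probe sets the STI571 changes spanned 0.57 log2 units in SUP-B15 and 2.88 in BV-173. Among the 196 other genes with 4 probe sets above the brightness filter, the median span was 0.69 in SUP-B15 and 0.75 in BV-173. A span as large as that of IKZF1 was found in 122 of these genes (62.2%) in SUP-B15 and in 3 (1.5%) in BV-173. The BV-173 span rests on 220704_at, and over the other 3 probe sets it was 0.90. It also runs between 2 dim signals, and was 3.94 with a pseudocount of 1, where 12 of the 196 genes had as large a span, and 1.78 with one of 98, where 0 had. The filter kept a probe set that reached its array's median in at least 1 array, which left 13408 probe sets.

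**Figure D2:**
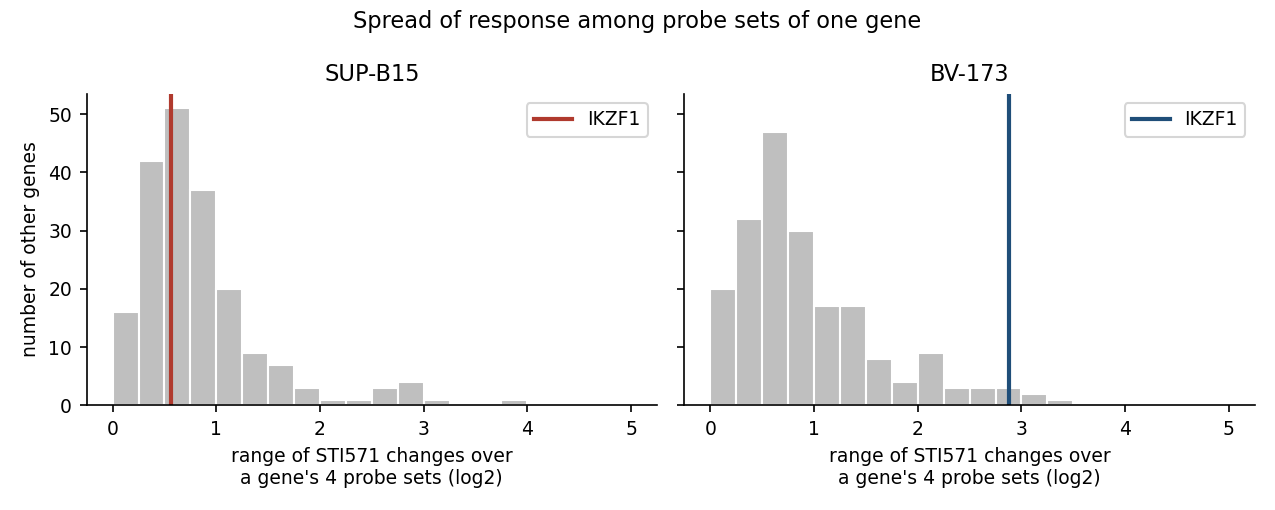
Number of genes (vertical axis) by the range of STI571 changes over a gene's 4 probe sets in log2 units (horizontal axis), in SUP-B15 on the left and BV-173 on the right, for 196 other genes in grey. The vertical line marks IKZF1, at 0.57 in SUP-B15, inside the bulk of genes, and at 2.88 in BV-173, in the far tail.

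Each response was also set beside the 500 probe sets nearest in mean level. A change at least as large as that of 205039_s_at was found in 173 of them in SUP-B15 and in 5 in BV-173. For 205038_at the counts were 474 in SUP-B15 and 19 in BV-173, and for 216901_s_at they were 440 and 4 in the same lines. For 220704_at they were 226 in SUP-B15 and 109 in BV-173, so its lower signal with STI571 in BV-173 was of a size common at its brightness. A change of at least 2-fold upward was seen in BV-173 for 3 of the 4 IKZF1 probe sets, against 6.99% of all kept probe sets. The count was 2 with quantile normalization, a common median or a pseudocount of 98, since 205038_at then came to 0.88 to 0.99. In SUP-B15 it was seen for 0 of the 4, against 4.49% of all.

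The question of a response shared by both lines was tested with limma on the full set of 4 arrays, with a term for the line, a term for STI571 and Benjamini-Hochberg adjustment over the 13408 probe sets. Of these, 369 (2.75%) were called at an adjusted p under 0.05, 179 higher (1.34%) and 190 lower (1.42%). Of the 4 IKZF1 probe sets, 205039_s_at alone was called, with a mean log2 change of 0.89 (SE 0.22, limma adjusted p = 0.00322), higher in 2 of 2 lines. This call was lost when arrays were set to a common median (adjusted p = 0.0812) and when a gene's probe sets were averaged (0.439). It was also lost without the intensity trend (0.661) and with the line left out as a block (1.0). The mean change was 0.52 (SE 0.26, limma adjusted p = 0.409) for 205038_at and 1.02 (SE 0.40, 0.188) for 216901_s_at. For 220704_at it was −0.19 (SE 0.56, limma adjusted p = 0.962).

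The fit has 1 residual degree of freedom, and its errors come from an intensity trend over all probe sets and not from a probe set's own spread. The mean of both lines is also a poor summary of IKZF1, since the lines differed. The SUP-B15 change minus the BV-173 change was −1.10 for 205039_s_at, −1.09 for 205038_at, −1.89 for 216901_s_at and 1.46 for 220704_at. With 1 array per group this difference was not tested. Opposite signs in the 2 lines, as in 220704_at and, on the deposited scale, 205038_at, were found in 44.7% of all kept probe sets. Among the 500 probe sets nearest in level, a difference in response at least as large was found in 9 for 205039_s_at, 31 for 205038_at, 14 for 216901_s_at and 77 for 220704_at. At least 2-fold higher in BV-173 with a change under 1.5-fold in SUP-B15, the pattern of 205039_s_at, 216901_s_at and, on the deposited scale with 24.5 added, 205038_at, was found in 513 of all kept probe sets (3.83%).

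**Figure D3:**
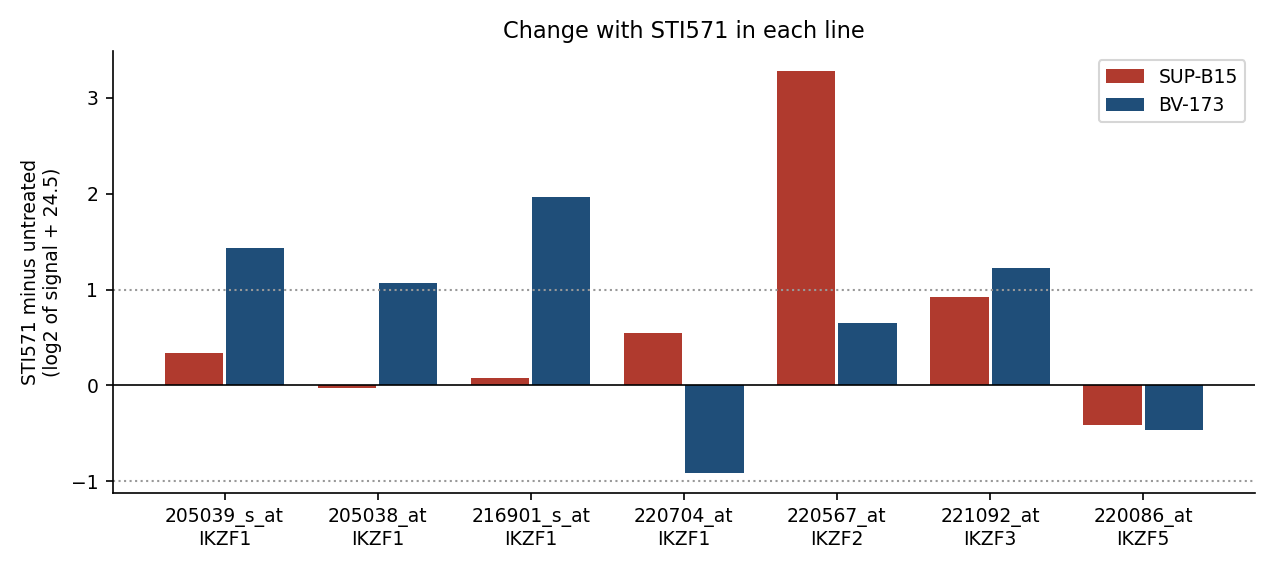
Change with STI571, as the difference of log2(signal + 24.5) between the treated and the untreated array (vertical axis), for each probe set in SUP-B15 (red) and BV-173 (blue), with dotted lines at 2-fold. In BV-173, 3 IKZF1 probe sets lie at 1.07 to 1.97 and 220704_at at −0.91. In SUP-B15 the IKZF2 bar, at 3.28, rests on an untreated signal of 5.9.

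IKZF1 signal was higher in SUP-B15 than in BV-173 with each of its 4 probe sets. The difference averaged over treatments, SUP-B15 minus BV-173, was 1.45 for 205039_s_at (SE 0.22, limma adjusted p = 4.93e-10), and both SUP-B15 arrays lay above both BV-173 arrays. It was 1.37 for 205038_at (SE 0.26, limma adjusted p = 2.15e-06), 1.74 for 216901_s_at (SE 0.40, 0.000128) and 1.63 for 220704_at (SE 0.56, 0.0168). The last passed the brightness filter only through the 2 SUP-B15 arrays, where it is high, so its call adds no support. Calls between the lines were common, at 25.9% of all kept probe sets and 13.5% in this direction, and both SUP-B15 arrays exceeded both BV-173 arrays in 29% of them. Of the 3477 calls between the lines 1804 were higher in SUP-B15, and with a common median 1314 of 3152 were. The 4 probe sets report 1 gene and do not count as 4 findings. Averaged over treatments their spread was 0.37 log2 units, where the median of the 196 other genes was 0.67 and 165 (84.2%) had one as large. Within a treatment they lay further apart, from 0.79 to 2.36 among treated arrays and from 0.90 to 2.69 among untreated ones. Without the intensity trend all 4 calls were lost (adjusted p = 0.092 to 0.119), and with no filter that of 220704_at was (0.0597).

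The gap between the lines was smaller with STI571 for 3 of the 4 IKZF1 probe sets. For 205039_s_at, SUP-B15 exceeded BV-173 1.86-fold among treated arrays and 3.99-fold among untreated ones. For 205038_at the excess was 1.77-fold among treated and 3.78-fold among untreated arrays, and for 216901_s_at 1.73-fold among treated and 6.43-fold among untreated arrays. For 220704_at the gap was wider with STI571, at 5.12-fold among treated arrays and 1.86-fold among untreated ones. The order of the arrays for 205039_s_at was treated SUP-B15, untreated SUP-B15, treated BV-173 and untreated BV-173. The closest neighbours, both of SUP-B15, were 0.34 log2 units apart, where the trend gives a difference of 2 arrays at this brightness an SD of 0.30. The other neighbours in that order were further apart than that SD, at 0.56 or more. Such an SD, here and below, comes from how far the lines differed in response over probe sets of like brightness. It is not a measure of array noise, for which repeated arrays would be needed. For 205038_at and 216901_s_at the SUP-B15 arrays were closer to each other than such an SD (0.37 and 0.56). For 220704_at the SUP-B15 arrays were 0.54 apart, under its SD of 0.79, and the other neighbours 0.90 and 0.91 apart.

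**Figure D4:**
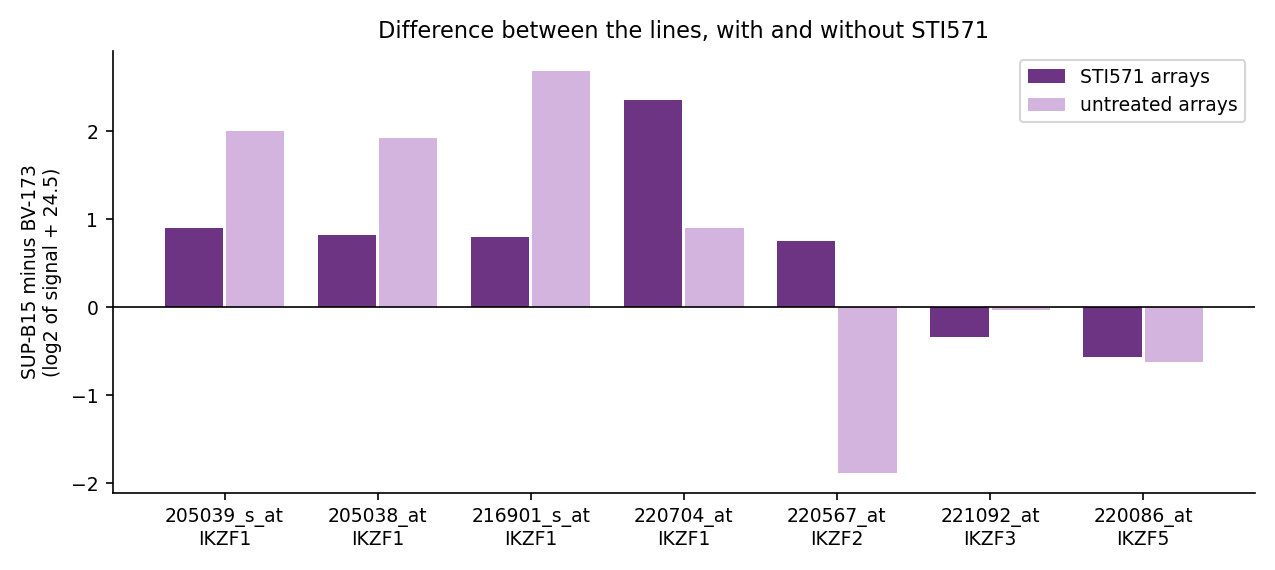
Difference between the lines, as log2(signal + 24.5) in SUP-B15 minus that in BV-173 (vertical axis), for each probe set among the treated arrays (dark) and the untreated arrays (light). For 3 IKZF1 probe sets the difference is 0.79 to 0.90 among treated arrays and 1.92 to 2.69 among untreated arrays, while for 220704_at it is the larger among treated arrays, at 2.36.

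IKZF2 had its larger response in SUP-B15. Its probe set, 220567_at, had 271.5 in treated and 5.9 in untreated SUP-B15, and 152 in treated and 87.7 in untreated BV-173. Both treated arrays lay above both untreated arrays, as in 12.5% of all kept probe sets. That order adds no support, since this probe set passed the brightness filter only through those treated arrays. The untreated SUP-B15 signal was at the 6.6th percentile of its array, the treated one at the 65th. The change was 3.28 in SUP-B15 and 0.65 (1.57-fold) in BV-173. No fold is given for SUP-B15, since a signal of 5.9 was not set against a measured background. It lies close to the untreated IKZF3 signals of 4.0 and 4.6 described below. Of the 500 probe sets nearest in level, 210 changed as much in BV-173.

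The size of the IKZF2 response depended on its dim end. The SUP-B15 change was 5.30 with a pseudocount of 1 and 1.83 with one of 98. The probe set passed the brightness filter only through its 2 treated arrays, where it is high, so its entry into the test already favoured a higher treated value. With that limit, limma called the mean change of 1.97 (SE 0.61), with an adjusted p of 0.0469 and higher values in 2 of 2 lines. The call was lost in 7 of 10 alternative settings, among them a common median (adjusted p = 0.0625), no filter (0.131) and 1 probe set per gene (0.0509). The difference in response, SUP-B15 minus BV-173, was 2.63 and was not tested. It rests on the untreated SUP-B15 signal of 5.9, so it is not ranked among neighbours in level. Between the lines IKZF2 was not called (−0.57, SE 0.61, limma adjusted p = 0.548). SUP-B15 was the lower by 1.88 log2 units among untreated arrays and the higher by 0.75 among treated ones. The upper 3 arrays were each 0.65 to 0.75 from the next, under the trend's SD of 0.86, and untreated SUP-B15 lay 1.88 below the third.

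IKZF3 was dim in all 4 arrays. Its probe set, 221092_at, had 29.4 in treated and 4.0 in untreated SUP-B15, and 43.4 in treated and 4.6 in untreated BV-173. Each treated signal was above both untreated signals, yet all were under the 33rd percentile of their array. It did not pass the brightness filter and was not in the main test. The changes were 0.92 in SUP-B15 and 1.22 in BV-173, and with no filter the mean of 1.07 was not called (limma adjusted p = 0.459). These signals do not show whether Aiolos transcript was present in either line.

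IKZF5 was lower with STI571 in both lines by a similar amount that did not pass the test. Its probe set, 220086_at, had 110 in treated and 154 in untreated SUP-B15, and 174 in treated and 250.1 in untreated BV-173. The SUP-B15 signals both lay below those of BV-173, and the treated one was the lower in each line. The changes were −0.41 in SUP-B15 and −0.47 in BV-173, with a mean of −0.44 (SE 0.42, limma adjusted p = 0.818). Of the 500 neighbours in level, 226 changed as much in SUP-B15 and 203 in BV-173. The difference between the lines was −0.59 (SE 0.42, limma adjusted p = 0.318). In order of level, untreated BV-173 came first, then treated BV-173, untreated SUP-B15 and treated SUP-B15, and neighbours were 0.16 to 0.47 log2 units apart. Each gap was under the trend's SD of 0.59 for a difference of 2 arrays at this brightness.

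The probe sets of other genes with the most similar pattern were sought by the Euclidean distance between log2 values centred over the 4 arrays, among 11812 candidates. Nearest to 205039_s_at of IKZF1 were probe sets of INSR, the insulin receptor, at a distance of 0.071, of C1RL at 0.144 and of RALGAPB at 0.174. INSR had 2850 in treated and 2138 in untreated SUP-B15, and 1423 in treated and 519 in untreated BV-173. C1RL was dim in BV-173, at 42.9 treated and 3.6 untreated, as was RALGAPB, at 86.2 and 16.4. Their untreated BV-173 signals lie under the added 24.5, so their likeness to 205039_s_at depends on it. Nearest to IKZF2 were LEF1, a transcription factor of the Wnt pathway, at 0.38, the corepressor gene NAB2 at 0.667 and TAPT1 at 0.673. LEF1 had 230.0 in treated and 12.4 in untreated SUP-B15, and 147 in treated and 77.0 in untreated BV-173. Like IKZF2, NAB2 and TAPT1 were dimmest in untreated SUP-B15, at 18.5 and 4.6, which follows from their choice by likeness of pattern. Some probe set is always nearest, and the distances for IKZF2 were larger than those for IKZF1 and IKZF5. Nearest to IKZF5 were SLC66A2 at 0.059, TRIM3 at 0.06 and BSG, which encodes basigin, at 0.069.

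Ikaros recruits the NuRD remodelling complex and other corepressors. Of 16 measured genes of 20 listed, 0 were called for STI571 by limma. Over all 7916 genes, each read from its brightest probe set, 1.4% were called higher and 1.62% lower, so a list of this length would hold few calls or none at that share. Their median change was 0.04 in SUP-B15 and −0.04 in BV-173. The largest mean changes were those of CHD3, a NuRD ATPase (−0.15 in SUP-B15 and −1.35 in BV-173, limma adjusted p = 0.233), and of SIN3B, a corepressor (0.86 and 0.23 in the same lines, 0.629). CHD4, the main NuRD ATPase in lymphocytes, had 0.39 in SUP-B15 and 0.65 in BV-173 (limma adjusted p = 0.214), and GATAD2A, another NuRD subunit, had −0.14 and −0.54 (0.705).

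A list of 11 genes for enzymes that control Ikaros stability or phosphorylation had 0 calls in limma, which at the same share of all genes says little about them. It held the CRL4-CRBN ubiquitin ligase, through which thalidomide-like drugs degrade Ikaros and Aiolos, casein kinase 2 and protein phosphatase 1. CUL4B, a ligase scaffold, had 0.06 in SUP-B15 and 0.97 in BV-173 (limma adjusted p = 0.318). CRBN, the drug-binding receptor, had −0.18 and 0.85 in the same lines (0.72). The casein kinase 2 subunit genes CSNK2A2 and CSNK2B had 0.01 and −0.54 in SUP-B15, and 0.83 and 0.05 in BV-173, where CSNK2B turned to −0.12 with a common median (limma adjusted p = 0.566 and 0.767). The median change of the list was −0.18 in SUP-B15 and 0.05 in BV-173, against −0.02 and 0.05 over the 7916 genes.

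Of 22 genes reported as Ikaros targets in B cell precursors, many of them from work in mice, 8 were called higher and 2 lower with STI571. The shares over all genes were 1.4% higher and 1.62% lower. The list was drawn up with earlier results of these data known, and Ikaros is reported to activate some of its genes and repress others, so the count has no expected direction. Its median change was 0.33 in SUP-B15 and 0.52 in BV-173. VPREB1, a surrogate light chain gene, had changes of 0.28 in SUP-B15 and 2.01 in BV-173. DNTT, a polymerase of V(D)J joining, had 0.40 and 1.69, and BLNK, an adaptor of pre-B cell receptor signalling, had 0.45 and 1.67. The changes of 205039_s_at in the same lines were 0.34 and 1.44. Those of 205038_at were −0.02 and 1.07, of 216901_s_at 0.08 and 1.97, and of 220704_at 0.54 and −0.91. Other genes called higher, such as RAG1 and BCL6 below, rose more in SUP-B15 than these 3 genes. Whether any listed gene follows IKZF1 was not tested.

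The other genes called higher were the recombinase genes RAG1 (1.42 in SUP-B15 and 1.89 in BV-173) and RAG2 (0.95 and 1.39), the receptor chain CD79B (0.72 and 1.66), the repressor BCL6 (1.86 and 3.28) and the progenitor antigen CD34 (0.77 and 1.82). All 8 had the larger change in BV-173, as did 69 of the 111 genes called higher in the whole table (62.2%). CD34 was dim in BV-173, at 103.9 with and 11.8 without STI571, both below their array's median. Its BV-173 change therefore depends on the added 24.5. The genes called lower were the cyclin gene CCND2 (−1.22 in SUP-B15 and −1.35 in BV-173, limma adjusted p = 0.000526) and MYC (−1.54 and 0.01, 0.0188), whose BV-173 change turned to −0.16 with a common median and −0.08 with quantile normalization. The other 12 had no call. Their mean changes ran from −0.72 for the adhesion receptor CD44 (−0.91 in SUP-B15 and −0.53 in BV-173) to 0.55 for the transcription factor IRF4 (0.59 and 0.50), which were named as the ends of that range once the values were known.

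**Figure D5:**
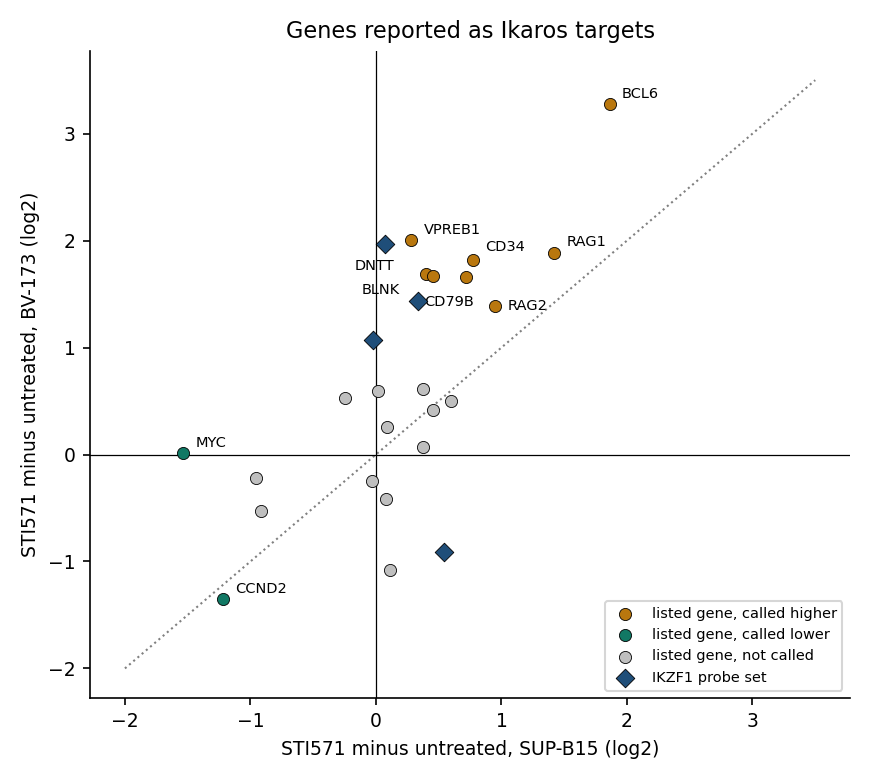
Change with STI571 in log2 units in SUP-B15 (horizontal axis) and BV-173 (vertical axis) for 22 genes reported as Ikaros targets (circles, coloured by call) and the 4 IKZF1 probe sets (diamonds), with a dotted line of equal change. The 8 genes called higher lie above that line, as do 3 IKZF1 probe sets, while 220704_at lies below it.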

How the data were processed

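Total RNA of 4 samples was labelled with biotin and hybridised by standard Affymetrix methods, per the labels' protocols. The submitters' processing notes name GCOS 1.3. The authors deposited a linear signal intensity for every probe set; how probes were summarised and to what target arrays were scaled is not given in the sources used here, and depth has no meaning for arrays. Detection calls were not used here.

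Of 22277 probe sets, 62 controls were left out. The platform annotation gave 1 symbol to 19064 of the others, several to 1043 and none to 2108. Signals were analysed as log2(signal + 24.5), where 24.5 is the 25th percentile of the signals of all arrays together. Every probe set at or above the 50th percentile of 1 or more arrays was fitted, 13408 in all and 6 of the 7 described, with limma 3.58.1 (R 4.3.3): cell line and treatment as terms, an intensity trend, two-sided tests and Benjamini-Hochberg adjustment at 0.05. Treated and untreated arrays are paired by the line named in the labels. The prior had infinite degrees of freedom, so p-values rest on the spread that the trend gives to probe sets of like brightness. They measure neither a probe set's own spread nor that between independent cultures. Nothing says that cultures were independent beyond the line.

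Responses of 1 line have no test. For lists, the brightest kept probe set with 1 symbol stood for a gene. The genes named are all described members, the 4 largest mean changes and every call per list, the 3 nearest patterns per gene, some cell type markers, and CD44 and IRF4, named after their values were seen. Members and lists were chosen with earlier results of these data known. In 10 simulated data sets of 13408 probe sets, with 200 changed, the fit for the shared STI571 effect recovered 40.9% of 2-fold and 77.8% of 4-fold changes, and 11.9% of its calls were unchanged probe sets. Alternatives were quantile normalization, a common median, pseudocounts of 1 and 98, no filter and a 75th percentile filter, the brightest or the average probe set of each gene, no intensity trend, a robust prior and a term left out.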

Additional observations from a re-analysis of the deposited data

Results flagged for a closer look

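Some responses had opposite signs in the lines, which was so for 44.7% of all kept probe sets; the differences were not tested. For 205038_at of IKZF1 the SUP-B15 change minus the BV-173 change was −1.09 (−0.02 in SUP-B15, 0.08 with a common median, and 1.07 in BV-173). For 220704_at of IKZF1 it was 1.46 (0.54 in SUP-B15 and −0.91 in BV-173). For CRBN it was −1.04 (−0.18 in SUP-B15 and 0.85 in BV-173), for CSNK2B −0.60 (−0.54 and 0.05 in the same lines) and for MYC −1.55 (−1.54 and 0.01). The BV-173 values of CSNK2B and MYC turned to −0.12 and −0.16 with a common median.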

How the results depend on the processing

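With 1 array per group no replicate could be left out, and no result of a single line has a test. The 369 probe sets called for STI571 became 235 with a common median, 0 without the intensity trend (1024 at an unadjusted p under 0.05 in limma) and 0 in the fit with no replicate block, which leaves out the line that pairs the arrays (131 at an unadjusted p). With 1 probe set per gene 239 of 7916 were called, fewer features being tested, and with a gene's probe sets averaged 116 of 7916, where the prior degrees of freedom were 16.7. The 3477 called between lines became 2273 and 2059 in those settings, 968 without the intensity trend and 2187 without the treatment term. Of 114 alternative tests of the probe sets described, 16 lost a call and 0 changed direction. The other 98 kept their side of the threshold, except that the tests of IKZF3 with no filter, counted among them, had no main test to compare with. Of 48 alternative values of single-line changes, 4 moved by more than the trend's spread, all with another pseudocount, in 216901_s_at and 220567_at. Adjusted p for the STI571 change of 205039_s_at ran from 0.00125 to 1.0 and of 220567_at from 0.0433 to 1.0. The cause of these shifts was not tested where none is named.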
